A study of Homo sapiens with 11 samples.

Results

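The genes described here encode the ISG15 conjugation system and a set of antiviral effectors: ISG15, USP18, UBE2L6, HERC5, HERC6, ISG20, BST2, RSAD2, MX1 and MX2. They were chosen by name, with earlier results of these data known, as all probes that the platform annotation assigns to these 10 genes. Their share of calls is therefore set beside that of all genes as a description. They comprised 12 of the 47323 probes on the array and 10 of the 20046 genes with a probe. Of the 12 probes, 11 had a detection p-value below 0.05 on at least 1 array, and all 10 genes were among the 14886 genes tested. The tumours were xenografts of A375, a single human melanoma cell line with the V600E form of BRAF, grown under the skin of female CD1 athymic mice that were 6 weeks old at implantation. For 12 days the mice received PLX4720, a BRAF inhibitor, at 60 mg/kg daily by gavage (3 arrays), PLX4720 at that dose together with bevacizumab (COMBO, 2 arrays), bevacizumab, an antibody against human VEGF, at 10 mg/kg by intraperitoneal injection 3 times per week (3 arrays), or methylcellulose vehicle (3 arrays). Athymic mice lack mature T cells but keep innate immune cells, and the stroma of such a tumour is of mouse origin, whereas the probes of the Illumina HumanHT-12 v4 array were designed against human transcripts. The question was how these human transcripts differed between the arms.

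ISG15 is a small ubiquitin-like protein that cells make in response to interferon and attach to other proteins. Its conjugation runs through an activating enzyme (UBA7), a conjugating enzyme (UBE2L6) and, in human cells, the ligase HERC5, and it is reversed by the protease USP18, which also restrains the type I interferon receptor. HERC6 is the close relative of HERC5 that serves as the main ISG15 ligase in mouse. Among the effectors, ISG20 is an RNA exonuclease, BST2 (tetherin) holds budding virions at the cell surface, RSAD2 (viperin) makes a chain-terminating nucleotide, and MX1 and MX2 are dynamin-like GTPases that block incoming viruses. Most of these genes are induced through the interferon-stimulated response element, a short DNA motif bound by factors of the IRF family.

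The promoter windows of the members are shown because the motif lies in the window of a gene whose level hardly differed between arms as well as in those of genes that rose. RefSeq promoter windows (GRCh38.p14, 250 bases before to 50 bases after a transcription start) were at hand for 8 of the 10 members, with 12 start sites, and USP18 and MX2 were not matched. The element was searched as GAAANNGAAA on both strands, overlapping matches included. It was present at 7 of the 12 start sites and in 6 of the 8 genes (ISG15, HERC5, ISG20, BST2, RSAD2 and MX1), against 3.57% of the 35116 start sites and 4.38% of the 27305 genes of the whole table. No match lay in the windows of UBE2L6 and HERC6. In MX1 the matches began at position 12 after its first listed start and at position -196 from another start. The stretches from position -150 to position -51 relative to the start follow, read 5′ to 3′ along each gene's own strand, with the bases of each match in capitals (the complement reads TTTCNNTTTC). They span chr1:1013347-1013446 for ISG15, chr4:88456969-88457068 for HERC5, chr15:88638866-88638965 for ISG20, chr19:17405681-17405780 on the minus strand for BST2, and chr2:6877627-6877726 for the second listed start of RSAD2.
ISG15: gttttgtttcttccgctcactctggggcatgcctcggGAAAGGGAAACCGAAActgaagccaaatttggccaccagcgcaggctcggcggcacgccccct
HERC5: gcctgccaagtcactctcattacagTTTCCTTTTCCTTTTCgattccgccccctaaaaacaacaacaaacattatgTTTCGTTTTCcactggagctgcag
ISG20: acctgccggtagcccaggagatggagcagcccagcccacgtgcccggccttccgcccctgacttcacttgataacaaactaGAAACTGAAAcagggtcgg
BST2: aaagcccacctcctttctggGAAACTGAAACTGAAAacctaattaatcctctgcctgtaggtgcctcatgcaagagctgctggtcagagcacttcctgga
RSAD2: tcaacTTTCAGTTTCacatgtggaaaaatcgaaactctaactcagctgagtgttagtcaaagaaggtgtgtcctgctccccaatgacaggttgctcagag
ISG15 and BST2 each held 2 overlapping matches, HERC5 held 3 and ISG20 and RSAD2 held 1. A match is a description of the letters in the window and says nothing of whether a factor was bound in these tumours.

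Between 19767 and 21952 probes per array were detected. Arrays correlated at 0.926 to 0.941 within PLX4720, 0.987 within COMBO, 0.957 to 0.988 within bevacizumab and 0.988 to 0.989 within vehicle. The array named PLX4720 3 lay apart from its arm on the second principal component, as did bevacizumab 1. The melanocyte lineage factors SOX10 and MITF were detected on all 11 arrays, PMEL on 1 and MLANA on none. The human leukocyte markers PTPRC and TYROBP were detected on no array, while CD68 was detected on 11 and CD14 on up to 9.

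PLX4720 alone was set against vehicle to ask which members responded to BRAF inhibition. ISG15, BST2, RSAD2, MX1, HERC6 and USP18 rose, so 6 of the 10 members were called higher and none lower, where 1.44% of all genes tested were called higher and 0.853% lower. Calls were made at an adjusted p below 0.05 in the two-sided moderated test of limma, with the adjustment of Benjamini and Hochberg made across the 14886 genes. The median log2 difference over the 10 members was 2.17, against 0.06 over all genes. In 9 of the 10, ISG20 being the exception, every PLX4720 array lay above every vehicle array, which held for 11.1% of all genes.

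**Figure D1:**
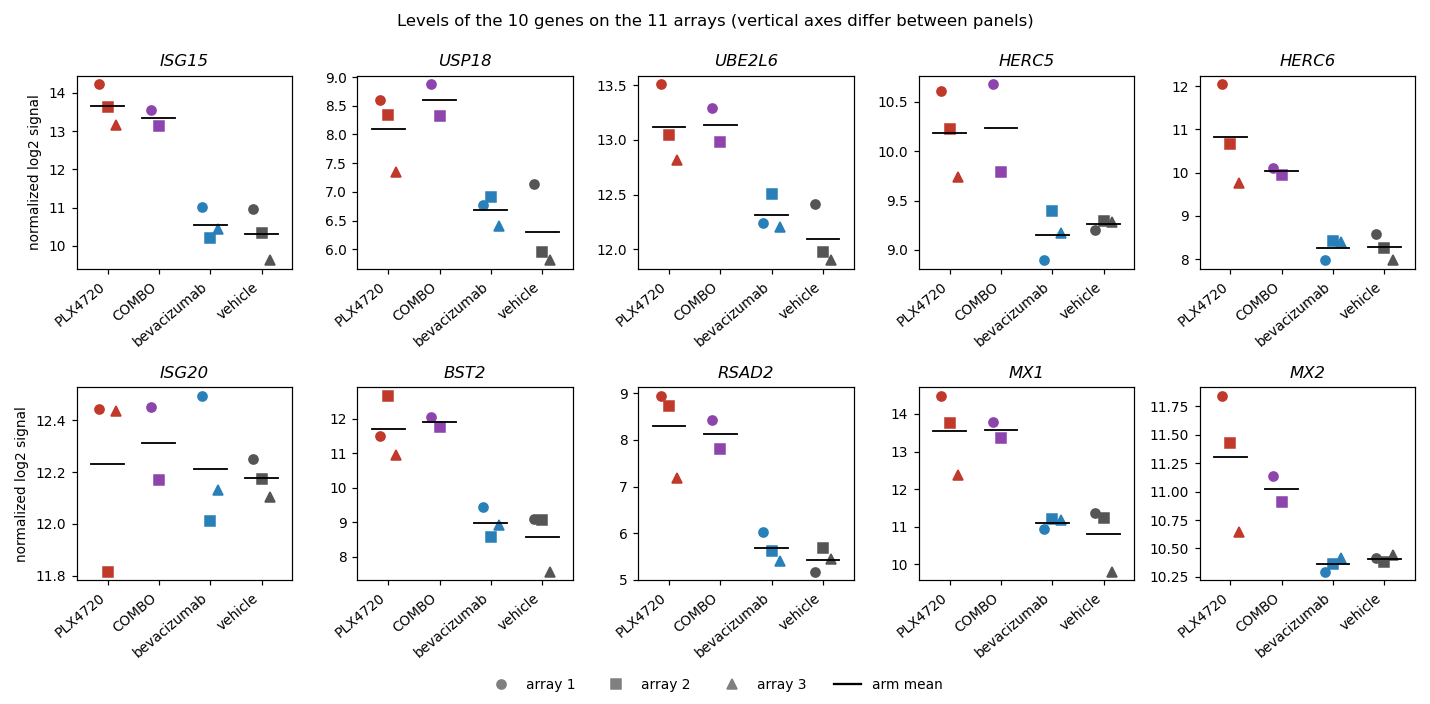
Normalized log2 signal (vertical axes, which differ in range between panels) of the 10 genes on the single arrays of the PLX4720, COMBO, bevacizumab and vehicle arms (horizontal axes). Symbols mark the array number and lines the arm mean, and 9 of the 10 genes have every PLX4720 and COMBO array above every bevacizumab and vehicle array.

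Within the conjugation system, ISG15 itself stood at 14.22, 13.63 and 13.15 (normalized log2 signal) on the PLX4720 arrays, against 10.96, 10.33 and 9.62 on the vehicle arrays. The lowest PLX4720 array was therefore more than 2 log2 units above the highest vehicle array, although the vehicle arrays themselves spanned 1.34. The difference was 3.36 ± 0.38 (log2, SE, n = 3 against 3), or 10.3-fold, with an adjusted p of 0.00261 from limma, which placed ISG15 at rank 13 of 14886 genes by p. UBA7, the activating enzyme and no member itself, was at 10.64, 10.08 and 10.58 on PLX4720 arrays, against 7.81, 7.71 and 7.45 on vehicle arrays. Its groups did not overlap, and the difference of 2.77 ± 0.27 was called (adjusted p = 0.00121).

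UBE2L6, the conjugating enzyme, was at 13.51, 13.04 and 12.82 with PLX4720, against 12.41, 11.98 and 11.90 with vehicle. The groups did not overlap, but the difference of 1.02 ± 0.24 missed the threshold (adjusted p = 0.0579). HERC5, the human ligase, was at 10.61, 10.22 and 9.73 with PLX4720, against 9.21, 9.29 and 9.29 with vehicle. Here the vehicle arrays spanned only 0.08 and the PLX4720 arrays 0.87, and the difference of 0.93 ± 0.29 was not called (adjusted p = 0.143). HERC6, the relative that acts as the ligase in mouse, was at 12.04, 10.66 and 9.75 with PLX4720, against 8.58, 8.26 and 7.98 with vehicle. It rose by 2.54 ± 0.46 (adjusted p = 0.0204), with a span of 2.29 within the PLX4720 arm, the widest of the 10 genes. USP18, the deconjugating protease, was at 8.59, 8.34 and 7.35 with PLX4720, against 7.13, 5.96 and 5.81 with vehicle. It rose by 1.80 ± 0.40 (adjusted p = 0.0462), close to the threshold, and PLX4720 3 was only slightly above vehicle 1. Like that of other dim probes its size followed the background correction, at 1.01 without correction (adjusted p = 0.0617), 1.03 on cubic spline values (adjusted p = 0.0580) and 1.43 with an offset of 50 (adjusted p = 0.0518), and none of these was called. USP18 has a near-identical relative, USP41, and whether the probe tells them apart was not tested. Over these steps, the modifier, its activating enzyme and its protease were called and the conjugating enzyme and the human ligase were not, which does not by itself show that their differences were unequal.

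Among the effectors, BST2 was at 11.51, 12.67 and 10.94 on PLX4720 arrays, against 9.11, 9.07 and 7.57 on vehicle arrays. It rose by 3.12 ± 0.49 (adjusted p = 0.0118). Vehicle 3 was far below the other vehicle arrays, and without it the difference was 2.62 ± 0.46 (adjusted p = 0.0465). MX1 was at 14.49, 13.76 and 12.37 with PLX4720, against 11.37, 11.24 and 9.81 with vehicle. It rose by 2.74 ± 0.52 (adjusted p = 0.0248), again with vehicle 3 lowest, and without vehicle 3 the difference was 2.24 and no longer called (adjusted p = 0.108). MX2, its paralogue, was at 11.84, 11.43 and 10.65 with PLX4720, against 10.41, 10.38 and 10.44 with vehicle. All 3 PLX4720 arrays exceeded the narrow vehicle range, PLX4720 3 by little, and the difference of 0.90 ± 0.28 was not called (adjusted p = 0.138).

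RSAD2 lay near background in vehicle tumours. Its signal was 655.4, 513.5 and 249.8 on PLX4720 arrays, all detected, against 138.4, 166.1 and 167.6 on vehicle arrays, of which 1 was detected. On the normalized log2 scale it was at 8.95, 8.73 and 7.19 with PLX4720, against 5.17, 5.68 and 5.43 with vehicle. It rose by 2.86 ± 0.42 (adjusted p = 0.00805). For so dim a probe the size of the difference follows the background correction: it was 1.55 on signals without correction (adjusted p = 0.0246) and 1.59 on cubic spline values (adjusted p = 0.0181).

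ISG20, the exonuclease, had the smallest difference of the 10 members. It was at 12.44, 11.82 and 12.44 on PLX4720 arrays, against 12.25, 12.17 and 12.11 on vehicle arrays, so that the vehicle arrays lay inside the range of the PLX4720 arrays. The difference was 0.05 ± 0.24 with a 95% interval of -0.47 to 0.58 (adjusted p = 0.939). PLX4720 2, the array on which ISG20 was lowest, was also the array with the highest level of immediate early and heat shock genes, which can rise while tissue is handled (median 1.18 above the vehicle mean), and the part of that in the ISG20 value was not tested.

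**Figure D2:**
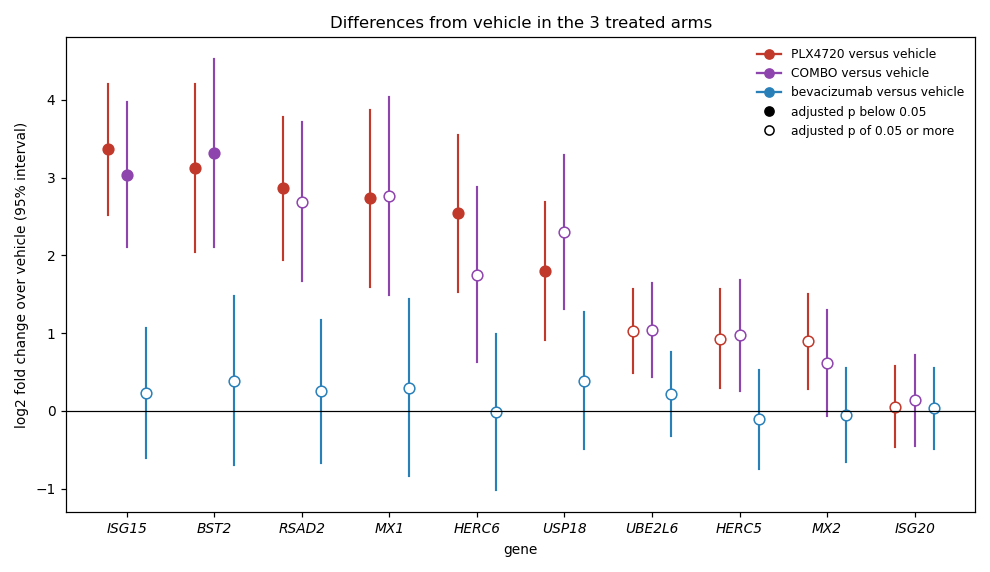
Log2 fold change over vehicle (vertical axis, with 95% intervals from limma) of each gene in the PLX4720, COMBO and bevacizumab arms, genes ordered by the PLX4720 difference. Filled points passed the adjusted p of 0.05: 6 for PLX4720, 2 for COMBO and none for bevacizumab.

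The calls for PLX4720 were not equally firm. Over 25 other settings of the analysis, ISG15 was called in 25, BST2 and RSAD2 in 24 each, HERC6 and MX1 in 21 each and USP18 in 10. The count of 6, beside 342 of all genes called in either direction, fell to 3 without vehicle 2 (64 of all genes) and to 3 without vehicle 3 (66 of all genes), with ISG15, BST2 and RSAD2 called in both cases. It was 9 without PLX4720 3 (724 of all genes), and 1, ISG15, when only the PLX4720 and vehicle arrays were fitted and no other arm added to the estimate of the spread (45 of all genes). Without PLX4720 1, neither MX1 (adjusted p = 0.0722) nor USP18 (adjusted p = 0.143) was called, and without vehicle 1 HERC6 just missed the threshold (adjusted p = 0.0542).

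Within the PLX4720 arm the members' values differed from array to array. Across the 10 members the median deviation from the vehicle mean was 2.61 on PLX4720 1, 2.21 on PLX4720 2 and 1.26 on PLX4720 3. PLX4720 1 held the highest PLX4720 value of 9 members and PLX4720 3 the lowest of 9. BST2 was the exception at the top, being highest on PLX4720 2, and ISG20 at the bottom, being lowest on PLX4720 2. The median SD of the members within the PLX4720 arm was 0.63 log2 units, against 0.44 over all genes, and within the vehicle arm it was 0.29, against 0.19. PLX4720 3 is the array that stood apart on the second principal component. On the first component of all genes PLX4720 1, PLX4720 2 and PLX4720 3 stood at 84.64, 36.9 and 0.09, the same order as the members' medians. Whether the members' spread within the arm and these separations share a source was not tested. UBA7 did not follow the same order, since it was lowest on PLX4720 2 and its value on PLX4720 3 was close to that on PLX4720 1.

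**Figure D3:**
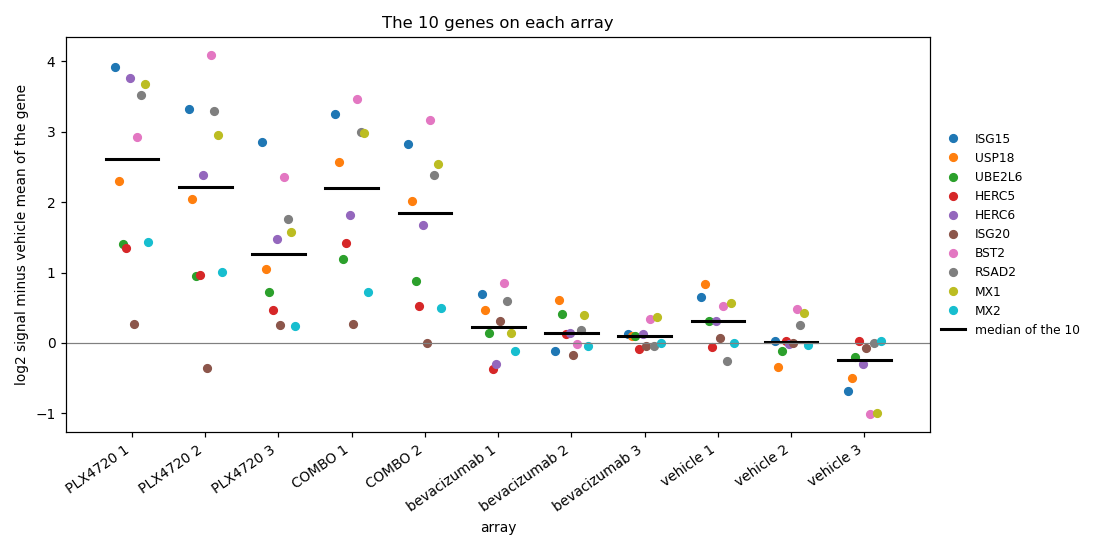
Deviation of each of the 10 genes from its own vehicle mean (vertical axis, log2) on each of the 11 arrays (horizontal axis), with the median of the 10 as a bar. The medians lie at 1.26 to 2.61 on PLX4720 arrays, 1.85 to 2.20 on COMBO arrays, 0.10 to 0.23 on bevacizumab arrays and -0.25 to 0.31 on vehicle arrays.

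COMBO was set against vehicle with 2 arrays for COMBO and 3 for vehicle. ISG15 and BST2 rose, so 2 of the 10 members were called higher and none lower, where 0.148% of all genes were called higher and 0.0269% lower. At an unadjusted p below 0.05 the members numbered 8, all higher, against 2.8% of all genes. The members' median log2 difference was 2.02, against -0.02 over all genes, and in 9 of the 10, again all but ISG20, both COMBO arrays lay above all vehicle arrays, as in 16.8% of all genes. The PLX4720 and COMBO comparisons share the 3 vehicle arrays.

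ISG15 was at 13.55 and 13.14 on COMBO arrays, against 10.96, 10.33 and 9.62 on vehicle arrays, a difference of 3.04 ± 0.43 (adjusted p = 0.0291). BST2 was at 12.05 and 11.75 with COMBO, against 9.11, 9.07 and 7.57 with vehicle, a difference of 3.32 ± 0.55 that only just passed (adjusted p = 0.0499). Both genes lay well clear of the vehicle range on both COMBO arrays. UBA7 was at 10.38 and 9.74 with COMBO, against 7.81, 7.71 and 7.45 with vehicle, and rose by 2.40 ± 0.30 (adjusted p = 0.0178).

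The other 8 members were not called in COMBO. RSAD2 was at 8.43 and 7.82 with COMBO, against 5.17, 5.68 and 5.43 with vehicle, and differed by 2.69 ± 0.46 (adjusted p = 0.0554). MX1 was at 13.79 and 13.35 with COMBO, against 11.37, 11.24 and 9.81 with vehicle, and differed by 2.77 ± 0.58 (adjusted p = 0.137). USP18 was at 8.87 and 8.32 with COMBO, against 7.13, 5.96 and 5.81 with vehicle, and differed by 2.30 ± 0.45 (adjusted p = 0.0953), with its highest value of all 11 arrays on COMBO 1. HERC6 was at 10.10 and 9.96 with COMBO, against 8.58, 8.26 and 7.98 with vehicle, and differed by 1.75 ± 0.51 (adjusted p = 0.419). These 4 genes had both COMBO arrays above the vehicle arrays, by the least in USP18 and HERC6. UBE2L6 was at 13.29 and 12.98 with COMBO, against 12.41, 11.98 and 11.90 with vehicle, and differed by 1.04 ± 0.27. HERC5 was at 10.68 and 9.79 with COMBO, against 9.21, 9.29 and 9.29 with vehicle, and differed by 0.97 ± 0.33. MX2 was at 11.14 and 10.91 with COMBO, against 10.41, 10.38 and 10.44 with vehicle, and differed by 0.61 ± 0.31. The vehicle arrays of HERC5 and MX2 lay close together and below both COMBO arrays. ISG20 was at 12.45 and 12.17 with COMBO, against 12.25, 12.17 and 12.11 with vehicle, and differed by 0.13 ± 0.26, with COMBO 2 inside the vehicle range. The rule stated in the study's methods, an unadjusted p below 0.01 with a log2 difference of at least 1, took in 7 members for PLX4720 (2.83% of all genes, higher) and 7 for COMBO (1.05% of all genes, higher). The COMBO calls rested on few arrays, and the calls of all genes moved along with them. The count of 2, beside 26 of all genes in either direction, was 0 without either COMBO array, without vehicle 2, without vehicle 3 or without any 1 bevacizumab array, where 1 to 7 of all genes were called. It was 5 without PLX4720 3 (73 of all genes), 6 when only COMBO and vehicle arrays were fitted (246 of all genes) and 8 with arrays weighted by their agreement with their arm (402 of all genes).

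Bevacizumab alone was set against vehicle to ask whether VEGF blockade moved these genes. No member was called by limma, nor was any of the 14886 genes (0%), and at an unadjusted p below 0.05 the members numbered 0, where 1.09% of all genes were higher and 1.28% lower. The arrays of all 10 members overlapped, whereas 4.82% of all genes had every bevacizumab array above vehicle and 6.03% had every one below. The members' differences ran from -0.11 for HERC5 to 0.39 for USP18, with a median of 0.23, against -0.02 over all genes. ISG15 lay 0.70, -0.11 and 0.12 from its vehicle mean on bevacizumab arrays, against 0.66, 0.03 and -0.68 on vehicle arrays, and bevacizumab 1 was level with vehicle 1. Its difference of 0.24 had a 95% interval of -0.60 to 1.07. BST2 was at 9.44, 8.56 and 8.92 with bevacizumab, against 9.11, 9.07 and 7.57 with vehicle, and bevacizumab 1 was the highest of the 6. MX1 was at 10.94, 11.20 and 11.17 with bevacizumab, against 11.37, 11.24 and 9.81 with vehicle, inside the vehicle range on every array. The intervals of the difference were wide, -0.69 to 1.47 for BST2 and -0.84 to 1.44 for MX1. HERC6 was at 7.98, 8.41 and 8.40 with bevacizumab, against 8.58, 8.26 and 7.98 with vehicle, a full overlap. RSAD2 was detected on 1 of 3 bevacizumab arrays, as on 1 of 3 vehicle arrays.

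COMBO was next set against each single drug. Against PLX4720, no member was called (adjusted p from 0.756 to 0.993, where 0.00672% of all genes were called higher and 0% lower), no member was past an unadjusted p of 0.05 (3.06% of all genes higher, 4.21% lower), and the arrays of all 10 members overlapped (8.11% of all genes lay apart above and 11.5% below). The largest differences were -0.79 ± 0.51 for HERC6 (95% interval -1.91 to 0.33) and 0.50 ± 0.45 for USP18 (-0.49 to 1.49). ISG15 differed by -0.32 with an interval of -1.26 to 0.61, so that a 2-fold lower level in COMBO tumours lay inside the interval. Against bevacizumab, ISG15 was called (2.80 ± 0.43, adjusted p = 0.0203), 1 of the 10 members, where 0.235% of all genes were called higher and 0.128% lower. BST2 differed by 2.93 ± 0.55 (adjusted p = 0.0633) and RSAD2 by 2.44 ± 0.46 (adjusted p = 0.0657). In 9 of 10 members both COMBO arrays exceeded all bevacizumab arrays, as in 14.8% of all genes, and 7 met the rule of the study's methods, against 1.43% of all genes. The count against bevacizumab was 0 without either COMBO array, without vehicle 2, bevacizumab 2 or bevacizumab 3, where 5 to 29 of all genes were called in either direction, and 4 without PLX4720 3 (142 of all genes), against 54 of all genes with all arrays.

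The difference made by PLX4720 could be measured on arrays that share no sample, as COMBO minus bevacizumab and as PLX4720 minus vehicle. ISG15 differed by 2.80 with bevacizumab and by 3.36 without it, BST2 by 2.93 with and 3.12 without, RSAD2 by 2.44 with and 2.86 without, and MX1 by 2.47 with and 2.74 without. HERC6 had the widest gap, 1.77 with bevacizumab and 2.54 without it, whereas the values of HERC5 (1.08 with, 0.93 without) and USP18 (1.91 with, 1.80 without) were slightly larger with it. The gap of HERC6 rested on PLX4720 1: leaving out 1 array moved its interaction to between -1.30 and -0.17, the smallest size without PLX4720 1. The interaction of the drugs, which tests that gap, was called for 0 of the 10 members (0.00672% of all genes higher, 0% lower), and 0 members passed an unadjusted p of 0.05 (2.81% of all genes higher, 2.72% lower). Its values ran from -0.77 ± 0.69 for HERC6 to 0.15 ± 0.44 for HERC5. The intervals were wide, -2.28 to 0.73 for HERC6 and -1.81 to 0.70 for ISG15, and do not show that the drugs acted independently.

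**Figure D4:**
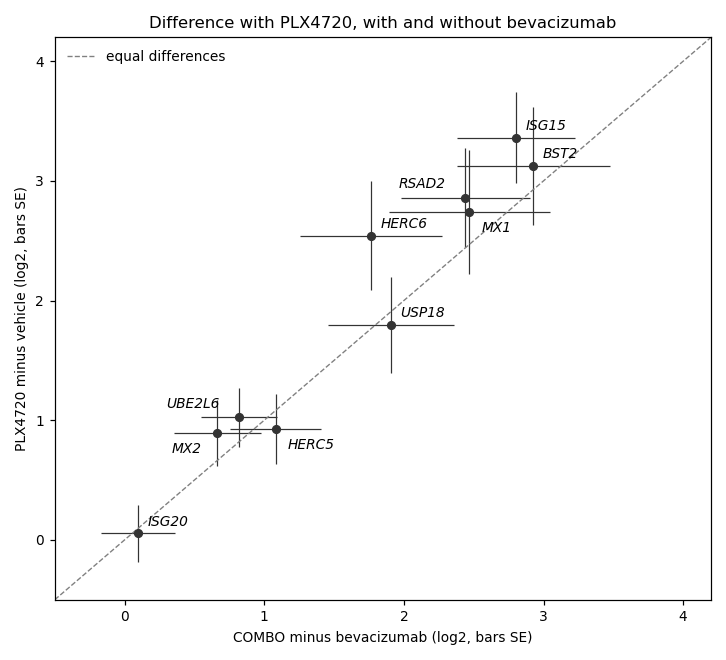
Log2 difference of COMBO minus bevacizumab (horizontal axis) and of PLX4720 minus vehicle (vertical axis) for the 10 genes, with SE bars from limma and a dashed line where both are equal. The axes share no arrays, ISG20 lies near 0 on both, and HERC6 lies farthest from the line.

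Averaged over the presence and absence of bevacizumab, 5 arrays with PLX4720 stood against 6 without. Every PLX4720-treated array exceeded every other array for 9 of the 10 members, which held for 2.98% of all genes. The averaged difference was called for 8 members, all higher, where 2.16% of all genes were called higher and 1.2% lower. ISG15 rose by 3.08 ± 0.29 (adjusted p = 0.000323), BST2 by 3.03 ± 0.37, RSAD2 by 2.65 ± 0.31, MX1 by 2.60 ± 0.39, HERC6 by 2.15 ± 0.34 and USP18 by 1.85 ± 0.30. On this larger set of arrays HERC5 and UBE2L6 were called as well, at 1.00 ± 0.22 (adjusted p = 0.0312) and 0.92 ± 0.18 (adjusted p = 0.0204). Both were less firm than the other calls, since over 24 other settings HERC5 was called in 15 and UBE2L6 in 18, against 23 for USP18 and 24 for each of the other 5. With the mean of its probes UBE2L6 was at 0.58 and not called (adjusted p = 0.210). MX2 differed by 0.78 ± 0.21 (adjusted p = 0.0727) and ISG20 by 0.08 ± 0.18 (adjusted p = 0.893). Without COMBO 1 the count was 5 (221 of all genes in either direction, against 499 with all arrays), and USP18, UBE2L6 and HERC5 were no longer called. A moderated F test over the 4 arms, read at an adjusted p below 0.1, took in 6 members (2.81% of all genes), those called for PLX4720 alone, with UBE2L6 just outside at 0.101.

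UBE2L6 was the only member with more than 1 probe, and its probes disagreed. The brighter probe gave the gene's values. The dimmer one, assigned to the same transcript, had a signal of 393.2, 1535.1 and 1858.9 on PLX4720 arrays, against 1630.8, 1445.8 and 1116.4 on vehicle arrays. On PLX4720 1 it lay 2.05 log2 units below its vehicle mean, where the brighter probe lay 1.41 above its own. On the other 10 arrays the deviations of both probes from their vehicle means differed by far less, with the dimmer at 0.44 and 0.36 on PLX4720 2 and PLX4720 3 and at 0.84 and 0.92 on COMBO arrays. In a fit over all 29725 detected probes, of which 0.905% were called higher with PLX4720 and 0.0639% with COMBO, 0 of the UBE2L6 probes were called in these 2 contrasts. The dimmer one differed by -0.42 ± 0.54 with PLX4720 (adjusted p = 0.781) and by 0.88 ± 0.61 with COMBO (adjusted p = 1.00). For the averaged PLX4720 effect, with 1.23% of all probes called higher, the brighter probe was called at 0.92 ± 0.19 (adjusted p = 0.0296) and the dimmer one was not, at 0.24 ± 0.41 (adjusted p = 0.862). With the mean of both probes in place of the brighter one, the PLX4720 difference of UBE2L6 was 0.30 (adjusted p = 0.654). The remaining probe, assigned to another transcript of the gene, was detected on 0 of 11 arrays.

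**Figure D5:**
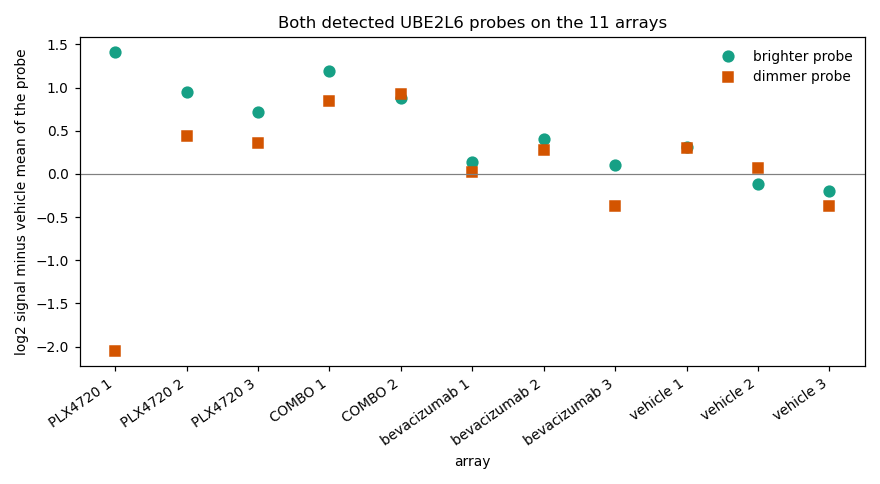
Deviation of both detected UBE2L6 probes from their own vehicle means (vertical axis, log2) on the 11 arrays (horizontal axis). The probes lie farthest apart on PLX4720 1, where the brighter stands at 1.41 and the dimmer at -2.05. On PLX4720 2 and PLX4720 3 the brighter stands at 0.94 and 0.72 and the dimmer at 0.44 and 0.36.

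The further genes of the pathway were read from lists of textbook members. Of the other partners of ISG15, TRIM25 (an RNA sensor cofactor and reported ISG15 ligase) differed by 0.14 and ARIH1 by -0.35 with PLX4720. Neither was called, so UBA7 was the only 1 of these 3 partners called. Of 14 measured interferon receptors and signal transducers, 0 were called in either direction with PLX4720 or with COMBO, and their median differences were 0.24 and 0.25. The transcription factors IRF7 and IRF9 differed by 1.30 ± 0.32 and 1.08 ± 0.28 with PLX4720 (adjusted p = 0.0697 and 0.0807) and by 1.26 and 1.05 with COMBO. For the PLX4720 effect averaged over bevacizumab these were the 2 of the 14 called, at 1.09 ± 0.24 for IRF7 (adjusted p = 0.0348) and 1.02 ± 0.21 for IRF9 (adjusted p = 0.0254). SOCS1, a feedback inhibitor of JAK kinases, differed by 1.39 ± 0.34 with PLX4720 (adjusted p = 0.0602) and by 0.07 with COMBO, neither called. In COMBO against PLX4720 and in the interaction of the drugs, 0 of the 14 were called, where 0.00672% of all genes were called higher and 0% lower. Of 21 interferon genes with a probe, only 4 were detected on at least 1 array and tested, and 0 of these 4 were called. Among the 4, IFNA21 was detected on 3 arrays, IFNW1 on 2 and IFNL1 on 1, all close to background, where a difference could hardly be seen. IFNE, the only 1 of them detected on all 11 arrays, was at 10.13, 8.25 and 8.23 on PLX4720 arrays, against 7.49, 7.76 and 7.98 on vehicle arrays, and PLX4720 1 stood far above the other PLX4720 arrays (difference 1.13 ± 0.52, adjusted p = 0.326).

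Of 22 other antiviral effectors measured, 4 were called higher with PLX4720 and 0 lower, where 1.44% of all genes were called higher and 0.853% lower. The median differences of the 22 were 0.85 with PLX4720 and 0.85 with COMBO. Not all of the 22 rose, and the lowest difference with PLX4720 was -1.53 ± 0.39, not called. The 4 called higher were PARP9, an ADP-ribosyltransferase (2.19 ± 0.41), TRIM22, an antiviral ubiquitin ligase (2.42 ± 0.48), XAF1, an antagonist of the caspase inhibitor XIAP (2.54 ± 0.53), and EPSTI1 (2.09 ± 0.45), at adjusted p of 0.0232 to 0.0388. With COMBO none of the 22 was called, and the same 4 genes differed by 1.96, 2.13, 2.80 and 2.34. For the averaged effect 8 of the 22 were called higher and 0 lower, with a median of 0.67, where 2.16% of all genes were called higher and 1.2% lower. By contrast, the median difference of 25 genes of ubiquitin and ubiquitin-like modifiers and enzymes was 0.02 with PLX4720 and -0.07 with COMBO. These genes, measured out of 35 listed, are ones that interferon is not known to control. Of the 25, 0 were called with PLX4720 or COMBO, nor were any for the averaged effect. USP22, with the smallest p of the 25 for PLX4720, differed by -2.41 ± 0.77. The 11 measured relatives of the MX proteins and of ISG20, dynamins, mitofusins and exonucleases, had 0 called in these contrasts and for the averaged effect. Their medians were 0.04 with PLX4720 and -0.21 with COMBO. With COMBO 0.148% of all genes were called higher and 0.0269% lower. Beside the shares of all genes in the 3 contrasts, 0 calls among 25 or 11 genes say little.

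Markers of other cell types were read beside these values. Human fibroblast marker genes, which tumour cells can also express, were called higher for 7 of 11 with PLX4720 and 1 of 11 with COMBO, with medians of 2.03 and 1.77, and their summed signal ranged over 24748 to 43927 on PLX4720 arrays, 13263 to 27743 on COMBO arrays and 5016 to 7478 on bevacizumab arrays, against 6708 to 9867 on vehicle arrays. Leukocyte markers had 1 of 11 called higher with PLX4720, AIF1, and a median of -0.04. Their summed signal was 4041 to 6273 on PLX4720 arrays, 5409 to 5656 on COMBO arrays and 6285 to 8564 on bevacizumab arrays, against 6426 to 7292 on vehicle arrays. CD68, at a mean of 12.33 (log2) on vehicle arrays, made up much of that sum. It differed by -1.13 ± 0.36 with PLX4720 and by -1.03 ± 0.40 with COMBO, neither called. Of 6 melanocyte markers MCAM was called higher with PLX4720 (1.22 ± 0.26), of 8 endothelial and pericyte markers RGS5 and again MCAM were, and of 13 immediate early and heat shock genes ATF3 was called lower (-1.48 ± 0.34) and none higher. With COMBO none of these 3 lists had a call. In the endothelial and pericyte list, TIE1 and PECAM1 differed by -2.29 ± 0.58 and -0.80 ± 0.25 with PLX4720, neither called. For the averaged effect 7 of the fibroblast, 1 of the leukocyte and 0 of the melanocyte markers were called higher. Of the endothelial and pericyte markers 1 was called higher (RGS5, 2.07 ± 0.45) and 1 lower (TIE1, -2.26 ± 0.44). Of the immediate early and heat shock genes 1 was called lower. The part of the fibroblast marker genes in the member values was not tested, nor was binding of mouse RNA to the member probes. In such bulk tumour RNA, a change in the share of cells that express a gene and a change in RNA per cell cannot be told apart.

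The genes whose pattern was most like each member were found by the root mean square difference, over the 11 arrays, between the 2 genes' deviations from their own means. For ISG15, whose own deviations had a root mean square of 1.61, the nearest were IFI6 (0.34), IFIT1 (0.38), PLAAT4 (0.41), CXCL10 (0.47) and CYP4X1 (0.49). IFI6, a mitochondrial interferon-induced protein, was also the nearest to MX1 (0.23) and to RSAD2 (0.40). On IFI6 the PLX4720 arrays stood at 3.59, 2.84 and 2.03 above the vehicle mean and the COMBO arrays at 2.81 and 2.58, and vehicle 3 was lowest at -0.76, as for ISG15, BST2 and MX1. The nearest gene was CMPK2 for USP18 (0.36), TRIM22 for HERC6 (0.31), A2M for BST2 (0.41), BEND7 for UBE2L6 (0.18), KAT2B for HERC5 (0.22), SGCE for MX2 (0.11) and SLC8B1 for ISG20 (0.09). For ISG20 the distances are small because the gene itself hardly varied, with a root mean square of 0.20. These values are descriptions over arrays that share arms and normalization, and genes near in pattern were not tested for anything more.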

How the data were processed

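RNA of the A375 xenografts was run by the authors on Illumina HumanHT-12 v4 arrays, and GenomeStudio 2011.01 is named in the submitters' processing notes. For every probe and array, the deposited raw table gives a bead summary intensity without normalization between arrays, together with the detection p-value set against that array's negative control beads. The authors' intensity values after cubic spline normalization, in another deposited table, served as an alternative. Columns were matched to samples by arm and number, and 8 lines without a probe identifier were left out. Of 47323 probes, 30113 had 1 symbol, 8 several and 17202 none, and 30074 were given current symbols through the gene identifier. The genome build behind the array's probes is not given in the sources used here, so no probe is placed on the genome. The study's methods call the replicates biological, and arms and numbers came from the sample titles.

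With limma 3.58.1 in R 4.3.3, log2 values were computed here from the deposited intensity after normexp background correction (moments of the control beads estimated through the detection p), an offset of 16 and quantile normalization. Probes with a detection p-value below 0.05 on at least 1 array were kept, and each gene was read from its probe with the largest mean, both after the study's methods. A linear model of the 4 arms was fitted to 11 arrays (lmFit, eBayes, two-sided, arms sharing 1 estimate of the spread) for 7 contrasts and an F test, with Benjamini-Hochberg adjustment over 14886 genes within a contrast. The code was tested on simulated data. Fold changes of probes near background depend on the offset. The number of arrays limits the precision, and 2 COMBO arrays give the least.

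All 10 members were named. Further gene lists held ISG15 partners, interferon receptors and signal, interferon ligands, other antiviral effectors, ubiquitin-like modifiers and enzymes, and dynamin and nuclease relatives. Marker lists covered melanocytes, leukocytes, fibroblasts, endothelium and RNA handling stress. From each further list up to 4 genes with the smallest p for PLX4720 were eligible. Genes of like pattern were the 5 nearest for ISG15 and the nearest for each other member. Markers of melanocytes and leukocytes named for the check of the tissue were chosen as defining ones. Members and lists were chosen with earlier results of these data known. Promoter windows were read from a RefSeq table with Python 3.11.15 and figures drawn with matplotlib 3.10.9. Alternatives covered normalization, background, detection filter, probe choice, the fit, each array left out and 2 pairs of arrays left out. The pairs, PLX4720 3 with bevacizumab 1 and PLX4720 2 with PLX4720 3, were chosen after seeing the data.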

Additional observations from a re-analysis of the deposited data

How the results depend on the processing

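All members named as called kept their sign under every alternative run, but their side of the threshold depended on the arrays. For PLX4720 against vehicle, leaving out 1 array gave 3 to 9 members called, and fitting only those arms gave 1, with 64 to 851 and 45 of all genes called in either direction, against 342. For COMBO against vehicle, the count of 2 was 1 on the authors' cubic spline values, 1 without background correction, 1 with an offset of 50, 1 with the stricter detection filter, 1 with the mean of a gene's probes and 0 without a detection filter, with 8 to 20 of all genes called, against 26. It was 8 with array weights (402 of all genes), 6 with only the arms compared (246), 7 by the rule of the study's methods (230), 6 without PLX4720 2 and PLX4720 3 together (118), and 0 to 5 with 1 array left out (1 to 73). For COMBO against bevacizumab, the count of 1 (54 of all genes) was 2 with median scaling (38), 9 with array weights (863), 2 with a trended and robust prior (51), 6 with only the arms compared (107), 7 by the rule of the study's methods (352), 2 without PLX4720 3 and bevacizumab 1 together (92), 6 without PLX4720 2 and PLX4720 3 together (267), and 0 to 4 with 1 array left out (5 to 142). Without PLX4720 2 and PLX4720 3 together, which leaves 1 array in the PLX4720 arm, assumed to vary like the other arms, the count for COMBO against PLX4720 and for the interaction was 1 each, against 0. The member was HERC6, at -2.01 and -1.99, and 884 and 452 of all genes were called, against 1 each with all arrays. The averaged PLX4720 effect gave 5 to 9 with 1 array left out (207 to 905 of all genes, against 499). The replicate numbers do not pair the samples in the labels, and arrays of the same number correlated in their deviations at -0.47 to 0.27. With the number as a replicate block, COMBO against vehicle gave 1 call (7 of all genes), and no other count of members called moved by over 1.5 times. Median scaling moved the median of all genes to 0.14 for PLX4720 against vehicle, -0.12 for bevacizumab, -0.11 for COMBO, -0.23 for COMBO against PLX4720 and -0.11 for the interaction. The cause of these changes was not tested.

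The signs that turned belonged to log2 differences that were never called. With median scaling, ISG20 was at -0.036 for bevacizumab, -0.015 for COMBO, -0.24 for COMBO against PLX4720 and -0.20 for the interaction, and against PLX4720 COMBO was at -0.26 for UBE2L6, -0.24 for HERC5, -0.13 for BST2 and -0.22 for MX1. With array weights, bevacizumab was at 0.091 for HERC6 and -0.056 for ISG20, and COMBO against PLX4720 at -0.030 for UBE2L6, -0.027 for HERC5 and -0.16 for MX1. With the replicate block, COMBO against PLX4720 was at -0.088 for UBE2L6, -0.024 for HERC5, -0.11 for BST2 and -0.32 for MX1, and the interaction at -0.14 for USP18. Without PLX4720 3 and bevacizumab 1 together, ISG20 was at -0.049 for PLX4720 and -0.10 for bevacizumab, bevacizumab was at 0.021 for HERC5 and 0.13 for HERC6, COMBO against PLX4720 at -0.14 for UBE2L6, -0.18 for HERC5, -0.19 for BST2 and -0.55 for MX1, and the interaction at -0.23 for USP18 and -0.20 for HERC5. Without PLX4720 2 and PLX4720 3 together, COMBO against PLX4720 was at -0.37 for UBE2L6, -0.37 for HERC5, -0.13 for ISG20 and -0.91 for MX1, and the interaction at -0.39 for USP18, -0.27 for HERC5, -0.17 for ISG20 and 0.0031 for BST2. The interaction was at 0.56 for UBE2L6 with the mean of its probes and at -0.00748 for ISG20 with cyclic loess. With 1 array left out, ISG20 ranged over -0.051 to 0.26 for PLX4720, -0.10 to 0.14 for bevacizumab, -0.0054 to 0.27 for COMBO, -0.13 to 0.22 for COMBO against PLX4720, -0.043 to 0.24 for COMBO against bevacizumab and -0.16 to 0.18 for the interaction. Bevacizumab against vehicle then ranged over -0.11 to 0.56 for ISG15, -0.23 to 0.021 for HERC5, -0.16 to 0.14 for HERC6, -0.12 to 0.65 for BST2 and -0.20 to 0.58 for MX1. COMBO against PLX4720 ranged over -0.14 to 0.21 for UBE2L6, -0.40 to 0.49 for HERC5, -0.19 to 0.68 for BST2, -0.71 to 0.16 for RSAD2 and -0.55 to 0.51 for MX1. The interaction ranged over -0.30 to 0.39 for USP18, -0.29 to 0.60 for HERC5, -0.57 to 0.31 for BST2, -0.85 to 0.23 for MX1 and -0.56 to 0.039 for MX2.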
